A study of Mus musculus with 8 samples.

Results

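The nuclear genes of oxidative phosphorylation were followed in primary mouse vascular smooth muscle cells, the contractile cells of the aortic wall, treated with angiotensin II alone or together with cyclosporin A. The members were chosen by name: every non-control probe whose gene name on the array begins with Nduf followed by a, b, c, s or v, is one of Sdha to Sdhd, begins with Uqcr or Atp5, or begins with Cox and a digit from 4 to 8. The rule found 113 probes of 41174, which name 82 genes of 27947. Of these genes, 78 encode subunits of the 5 respiratory complexes and 4 do not: Ndufaf1, an assembly factor of complex I, Cox7a2l, an assembly factor of respiratory supercomplexes, Dmac2l, listed on the array as Atp5s, and Emc8, listed as Cox4nb.

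Both groups were cultures from the aorta of C57BL/6 mice with no genetic change, grown in medium with serum. The AngII group (4 arrays) received 1 µM angiotensin II, a peptide hormone that raises calcium in these cells. The AngII+CsA group (4 arrays) received 1 µM angiotensin II with 200 ng/ml cyclosporin A, an inhibitor of the calcium-dependent phosphatase calcineurin. Every cell analysed here had therefore been exposed to angiotensin II, and the comparison is of cyclosporin A on that background. Cultures without angiotensin II were not analysed here. Arrays with the same replicate number lay on the same slide, and whether they also came from the same culture is not given in the labels, so what a replicate number stands for besides a slide is unknown. RNA was hybridised to one-colour arrays, and a level is given as log2 of the signal minus the 75th percentile of its own array, so that 0 is the 75th percentile. Levels of different probes are not comparable, because probes differ in brightness.

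Oxidative phosphorylation takes place in the inner mitochondrial membrane. Complex I oxidises NADH and complex II succinate. Both pass electrons through ubiquinone to complex III, and cytochrome c carries them on to complex IV, which reduces oxygen. Complexes I, III and IV pump protons, and complex V, the ATP synthase, uses the returning protons to make ATP. The catalytic heart of complexes I, III and IV is encoded partly by mitochondrial DNA, whereas the subunits measured here are made from nuclear genes, and complex II is wholly nuclear. Several complex IV subunits exist as isoforms that are typical of particular tissues, such as heart and skeletal muscle, lung or testis.

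The marker genes of smooth muscle were present: 12 of 13 passed the filter on dim probes, for which a probe had to exceed the scanner's background test on 4 or more of the 8 arrays. Acta2, smooth muscle actin, averaged 7.59 ± 1.44 in the AngII arrays and 7.62 ± 1.44 in the AngII+CsA arrays (mean ± SD over 4 arrays). The differences of the 12 genes between treatments ran from -1.69 for Cnn1, calponin, to 0.43 for Synpo2, and 6 of the 12 were within 0.2 on the log2 scale. No gene of the list was called in limma, with 1 unadjusted p under 0.05 without the block and 2 with it, those of Cnn1 and Synpo2. Myocd, a transcriptional coactivator of smooth muscle genes, did not pass. Of 10 endothelial markers 6 passed, with a median level of -2.61, and Cdh5 and Pecam1 were well above background on no array. Of 9 markers of adventitial fibroblasts, the cells of the outer aortic wall, 6 passed, among them Dcn with a mean level of 9.10 with AngII, Pdgfra with 5.83 and Lum with 3.49. The median level of the 6 was 1.68. Of the markers that did not pass, Cd34 was well above background on no array, and Dpt and Ly6a on 1 array of each group. Of 9 macrophage markers 3 passed, and of 12 adipocyte markers 3, with Ucp1 well above background on no array. Markers of skeletal and cardiac muscle passed in 12 of 16 genes, with a median level of -0.81, and T cell markers in 4 of 7, with -1.97. Between 42.8% and 51.7% of the spots of an array were well above background, and no spot of a gene was saturated.

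Of the 82 member genes 76 passed the filter, against 14668 genes in all, and 74 of the 76 were well above background on all 8 arrays. The tested subunits were 32 of 35 in complex I, 4 of 4 in complex II, 7 of 7 in complex III, 15 of 17 in complex IV and 15 of 15 in complex V. The 6 genes that did not pass were Ndufa11, Ndufb5 and Ndufs8 of complex I, the muscle isoform Cox8b and the testis isoform Cox8c of complex IV, and Emc8. Subunits encoded by mitochondrial DNA had no probe under the names searched. Nuclear subunits of other names fell outside the rule and are left out of the counts by complex unless stated. With them, 33 subunits were tested in complex I, with differences up to 0.19, 9 in complex III and 17 in complex V.

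Because the genes share a function rather than a sequence, their promoters were read for known binding letters. RefSeq windows (build GRCm38.p6, 250 bases before to 50 after the start) were found for 64 of the 78 subunit genes. On either strand, the letters of nuclear respiratory factor 1 (NRF1, searched as GCGCA and GCGC with any 1 base between them), a regulator known for acting on respiratory genes, stood in 17 of the 64 genes (26.6%), against 5.19% of 27025 genes and 7.17% of 17492 protein-coding genes with a window. They stood in 7 of 31 complex I genes, 2 of 3 complex II genes, 1 of 4 complex III genes, 1 of 12 complex IV genes and 6 of 14 complex V genes. The ETS letters CCGGAAG were found in 16 genes (25.0%, against 9.93% of all genes and 12.9% of protein-coding genes), the YY1 letters AAGATGGC in 10 (15.6%, against 3.19% and 3.57%), the ERR letters AAGGTCA in 8 (12.5%, against 5.38% and 4.73%) and the CRE letters TGACGTCA in 4 (6.25%, against 2.03% and 2.54%). The SP1 letters GGGCGG were in 25 (39.1%), against 38.2% of all genes and 49.2% of protein-coding genes. Matches of different motifs overlapped at 1 place in the subunit windows, and 15 of the 64 genes held none of the 6 motifs. A match is a description of the letters and not of binding. The 250 bases before the start are printed for 2 genes with repeated NRF1 letters, Ndufb4 (chr16:37654369-37654618, minus strand) and Cox6a1 (chr5:115348959-115349208, minus strand). Capitals mark any of the 6 motifs on either strand: 3 NRF1, 1 ERR and 1 SP1 match in Ndufb4, and 2 NRF1, 1 ETS and 2 SP1 matches in Cox6a1.
Ndufb4: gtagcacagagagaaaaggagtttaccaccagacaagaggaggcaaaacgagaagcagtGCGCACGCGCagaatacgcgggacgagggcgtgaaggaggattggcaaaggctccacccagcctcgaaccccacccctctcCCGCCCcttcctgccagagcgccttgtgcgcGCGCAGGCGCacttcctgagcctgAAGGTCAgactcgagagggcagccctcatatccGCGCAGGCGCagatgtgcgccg
Cox6a1: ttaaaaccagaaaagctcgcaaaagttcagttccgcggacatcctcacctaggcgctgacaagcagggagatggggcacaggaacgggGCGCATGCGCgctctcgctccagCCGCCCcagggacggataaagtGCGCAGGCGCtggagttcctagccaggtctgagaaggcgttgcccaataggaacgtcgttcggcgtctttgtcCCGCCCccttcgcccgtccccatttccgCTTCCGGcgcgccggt

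Cyclosporin A left the oxidative phosphorylation genes close to their level with angiotensin II alone. No member passed an adjusted p of 0.05 in limma's test of AngII+CsA against AngII (0 of 76, against 0% of all 14668 genes tested), and the differences ran from -0.41 to 0.12 on the log2 scale. The difference was within 0.2 on the log2 scale for 73 of the 76 members (96.1%), against 76.3% of all genes, and within 0.5 for all 76, against 97.5%. The members' probes were brighter, with a median level of 5.93 against 0.53 for all genes. These shares were not compared at like brightness. Unadjusted, 0 members and 43 of all genes (0.293%) had p under 0.05. With the replicate number as a block, limma again called 0 members, against 2 of all genes (0.0136%), and the smallest adjusted p of a member was 0.915. Unadjusted, the blocked fit gave 2 members p under 0.05 against 744 of all genes (5.07%). The 95% interval of a member's difference reached a median of 0.31 to either side with the block and 0.63 without it.

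The signs of these small differences leaned downward, except under normexp background correction, and one pair of arrays carried the lean. Across the members 56 were lower and 20 higher in AngII+CsA, so 26.3% were higher against 48.7% of all genes, and the median difference was -0.05 against 0.00 over all genes. By pair, the median over the members was -0.41 for replicate 1, 0.02 for replicate 2, 0.12 for replicate 3 and 0.01 for replicate 4. Over all genes the same medians were -0.07, 0.00, 0.01 and 0.01. In the replicate 1 pair 70 of the 76 members were lower with cyclosporin A (57% of all genes), against 27, 16 and 35 members in the pairs of replicates 2, 3 and 4. Without the replicate 1 pair 11 members were lower and 65 were not, and the median difference was 0.04. With normexp background correction in place of the scanner's processed signal 20 members were lower, and the median was 0.05. Of the 76 members 3 were lower in all 4 pairs, against 8.26% of all genes, and 2 were higher in all 4, against 6.28%.

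**Figure D1:**
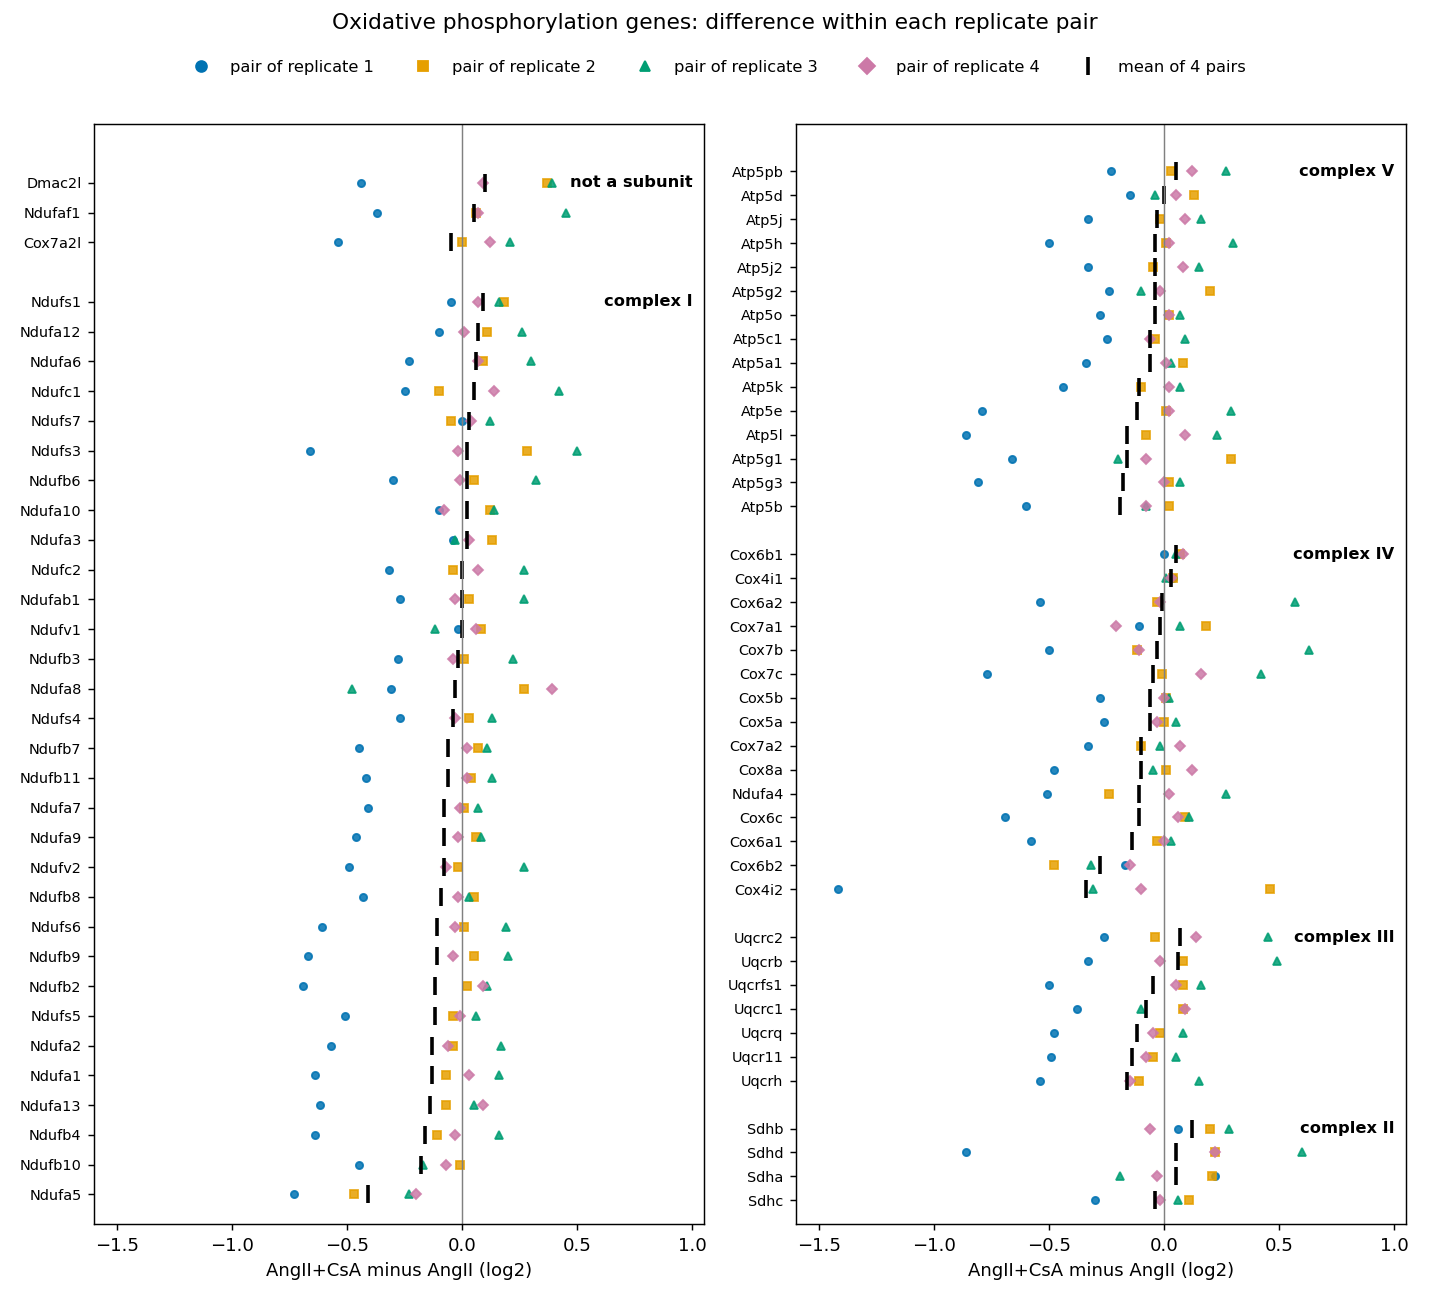
Difference between AngII+CsA and AngII for 75 of the 76 tested genes (log2, horizontal axis), ordered by mean within each complex; each symbol is one replicate pair and the black bar is the mean of the 4 pairs. The circles of the replicate 1 pair lie left of 0 for 70 genes, while the medians of the other 3 pairs are 0.02, 0.12 and 0.01; in the replicate 3 pair most triangles lie right of 0.

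In complex I the accessory subunits, which surround the catalytic core, had a median difference of -0.07 (6 higher and 20 lower of 26), and the core subunits, which hold the flavin and the iron-sulfur clusters, 0.02 (4 higher and 2 lower of 6). In the replicate 1 pair all 26 accessory subunits were lower (median difference -0.42), and 4 of the 6 core subunits were (median -0.04). Among the core subunits, Ndufs7 differed by 0.00 and Ndufv1, the NADH-binding subunit, by -0.02 in that pair, while Ndufs3 differed by -0.66 and Ndufv2 by -0.49.

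Ndufa5, an accessory subunit of complex I, had the widest difference among the members. Its levels with AngII were 6.84, 6.50, 6.50 and 6.23 in replicates 1 to 4, and with AngII+CsA 6.11, 6.03, 6.28 and 6.04. It was lower in each of the 4 pairs, by a mean of 0.41 on the log2 scale (1.32-fold; AngII+CsA minus AngII -0.41, 95% interval -0.71 to -0.10 with the block), although the highest AngII+CsA value lay above the lowest AngII value. In limma with the block its p was 0.0172 unadjusted and 0.915 adjusted over all genes, and its adjusted p over all the settings tried lay between 0.496 and 1. Ndufa5 did not differ detectably between replicate numbers (limma F test, adjusted p = 0.359).

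Ndufb10, another accessory subunit, was also lower in all 4 pairs, but only slightly. Its levels were 1.37, -2.13, -2.46 and -1.95 with AngII and 0.92, -2.13, -2.63 and -2.02 with AngII+CsA. The difference of -0.18 (95% interval -0.45 to 0.10 with the block) was small beside the distance between replicate numbers, since both replicate 1 arrays stood above the other 6 arrays. On the higher side, Ndufs1, the core subunit with the most iron-sulfur clusters, read 3.88, 3.35, 3.89 and 3.49 with AngII and 3.83, 3.53, 4.05 and 3.56 with AngII+CsA, a difference of 0.09 (-0.15 to 0.33). Ndufa12, an accessory subunit, read 5.88, 5.82, 6.19 and 5.98 against 5.77, 5.93, 6.45 and 5.99, a difference of 0.07 (-0.19 to 0.33). Neither of these 2 differences excluded 0.

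Complex II was the complex whose median lay above 0, at 0.05, with 3 of its 4 subunits higher, although under normexp the medians of all 5 complexes lay above 0, from 0.03 to 0.13. Sdhb, the iron-sulfur subunit, had levels of 4.31, 4.23, 5.00 and 4.78 with AngII and 4.37, 4.44, 5.28 and 4.72 with AngII+CsA. Its difference was 0.12 (-0.14 to 0.38), higher in 3 of 4 pairs. Sdha, the flavin subunit that oxidises succinate, differed by 0.05, with 0.22 in the replicate 1 pair. The membrane anchors differed in that pair: Sdhc by -0.30 and Sdhd by -0.86. Sdhc read 5.45, 4.68, 5.47 and 5.12 against 5.15, 4.78, 5.53 and 5.09, a mean difference of -0.04 (-0.31 to 0.23). With 4 genes, these values describe the subunits and carry no test of complex II against the other complexes.

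In complex III, which passes electrons from ubiquinol to cytochrome c, 2 subunits of the name rule were higher and 5 lower, with a median of -0.08. With the subunits of other names, 3 of 9 were higher and 6 lower, from -0.27 to 0.10. Of these 9, 1 was lower in all 4 pairs, against 8.26% of all genes. In the blocked limma fit 1 of the 9 had an unadjusted p under 0.05, against 5.07% of all genes, and 0 were called. Uqcrh, the hinge protein near cytochrome c1, had levels of 9.13, 8.04, 8.33 and 7.58 with AngII and 8.59, 7.94, 8.48 and 7.43 with AngII+CsA, a difference of -0.16 (-0.49 to 0.16). Uqcrc2, a core protein of the complex, had 3.63, 2.82, 2.66 and 2.38 against 3.37, 2.78, 3.11 and 2.52, a difference of 0.07 (-0.27 to 0.41). In both genes the 4 AngII levels spread over more than 1 log2 unit and the groups overlapped.

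Complex V had 1 subunit of the name rule higher and 14 lower, with a median of -0.06. All 5 subunits of the catalytic F1 head were at or below 0 (median -0.06), and of the 10 subunits of the membrane part and stalks 9 were below (median -0.04). Atp5b, the catalytic beta subunit, read 10.38, 9.65, 10.35 and 9.99 with AngII and 9.78, 9.67, 10.28 and 9.91 with AngII+CsA. Its difference was -0.19 (-0.51 to 0.14), of which the replicate 1 pair gave -0.60 and the other pairs 0.02, -0.08 and -0.08. Atp5pb, subunit b of the peripheral stalk, had 7.59, 6.93, 7.16 and 6.55 against 7.36, 6.96, 7.44 and 6.67, a difference of 0.05 (-0.24 to 0.34). It was the subunit of the name rule on the higher side. Among these 15 subunits the treatment differences ran from -0.19 to 0.05, and the range over the 4 replicate numbers was 0.35 or more. These measures are not alike, since a range over 4 means tends to be wider than a difference between the group means. With the subunits of other names, 2 of 17 were higher and 15 lower. The differences then reached 0.17, and the smallest range over the replicate numbers was 0.26.

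The isoform genes of complex IV and of the ATP synthase ring were read one by one, since a change of isoform would leave a sum over the complex unaltered. Cox4i1, the widespread isoform of subunit 4, had levels of 8.73, 8.46, 9.44 and 8.98 with AngII and 8.77, 8.51, 9.44 and 9.0 with AngII+CsA. It was the steadiest of them: the 4 pairs differed by 0.04, 0.04, 0.01 and 0.03, although the means of the 4 replicate numbers spanned 0.96. Cox4i2, the isoform known from lung and for its induction by low oxygen, read -0.12, -1.37, -0.33 and -0.38 against -1.53, -0.92, -0.64 and -0.48. Its difference of -0.34 (-1.03 to 0.35) rested on the replicate 1 pair, which differed by -1.42, while the replicate 2 pair went the other way by 0.46.

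Cox6b1, the widespread isoform of subunit 6b, had levels of 3.14, 2.83, 3.68 and 3.21 with AngII and 3.14, 2.89, 3.73 and 3.29 with AngII+CsA, a difference of 0.05 (-0.18 to 0.28). Its testis isoform Cox6b2 had 0.74, 0.45, 0.96 and 0.76 against 0.57, -0.03, 0.64 and 0.61. Cox6b2 was lower in all 4 pairs (difference -0.28, 95% interval -0.54 to -0.02, 1.21-fold), and in limma with the block its p was 0.0386 unadjusted and 0.915 adjusted, with an adjusted p between 0.682 and 1 over the settings tried. The groups overlapped, since the lowest AngII value was below 3 of the AngII+CsA values.

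Cox6a1, the widespread isoform of subunit 6a, read 4.77, 4.36, 3.30 and 4.99 with AngII and 4.19, 4.33, 3.33 and 4.99 with AngII+CsA, so that 3 of the 4 pairs differed by at most 0.03. The muscle isoform Cox6a2 read -0.24, -0.13, 0.06 and -0.05 against -0.79, -0.16, 0.63 and -0.06, with replicates 1 and 3 moving in opposite directions by -0.54 and 0.57. The muscle isoform Cox7a1 read 1.08, 0.83, 1.78 and 1.24 against 0.97, 1.00, 1.85 and 1.03, a difference of -0.02 (-0.29 to 0.25). Its widespread counterpart Cox7a2 read 5.93, 5.57, 5.82 and 5.56 against 5.59, 5.47, 5.79 and 5.63, a difference of -0.10 (-0.36 to 0.17). None of these 4 genes had an interval that left out 0.

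Cox8a, the widespread isoform of subunit 8, had levels of 9.15, 8.63, 9.41 and 8.89 with AngII and 8.67, 8.64, 9.36 and 9.0 with AngII+CsA. Ndufa4, first described with complex I and now counted with complex IV, had 7.36, 6.77, 6.61 and 6.14 against 6.85, 6.53, 6.88 and 6.16. Cox7a2l had 1.91, 2.65, 1.17 and 2.95 against 1.36, 2.65, 1.38 and 3.07. In all 3 the replicate 1 pair had the lowest difference of the 4, with values of -0.48, -0.51 and -0.54, and the means differed by -0.10, -0.11 and -0.05.

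Atp5g1, Atp5g2 and Atp5g3 encode the same mature ring protein of ATP synthase, subunit c, with different targeting peptides. Atp5g1 read 6.36, 5.41, 6.57 and 5.42 with AngII and 5.70, 5.71, 6.37 and 5.34 with AngII+CsA (difference -0.16, -0.56 to 0.24). Atp5g2 read 8.02, 7.43, 8.68 and 8.02 against 7.78, 7.64, 8.58 and 8.0 (-0.04, -0.32 to 0.23). Atp5g3 read 9.82, 8.88, 9.41 and 9.12 against 9.01, 8.90, 9.48 and 9.13 (-0.18, -0.60 to 0.24). In each of the 3 the replicate 1 pair had the lowest difference of the 4, at -0.66, -0.24 and -0.81.

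**Figure D2:**
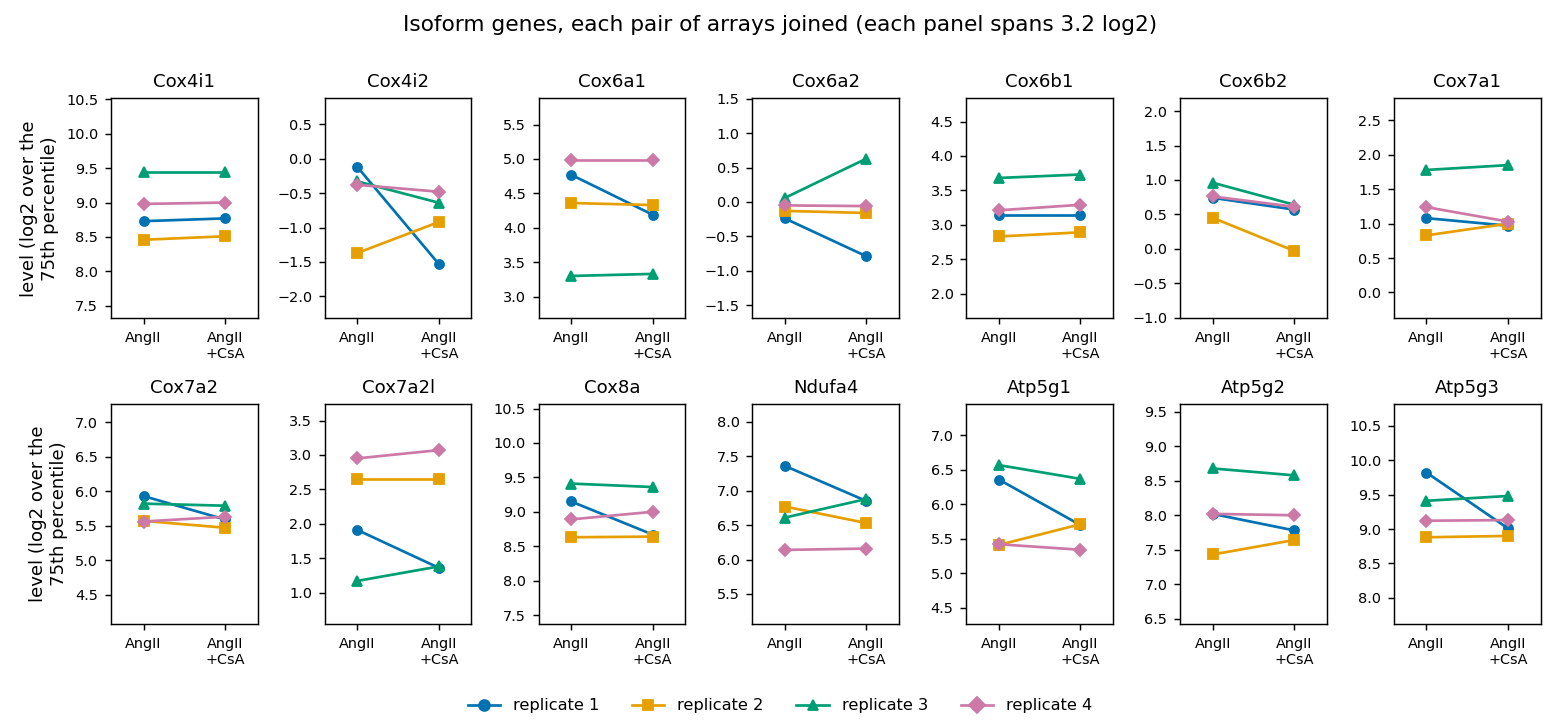
Level of each of the 14 tested isoform genes (log2 over the array's 75th percentile) with AngII and with AngII+CsA, one line per replicate pair; every panel spans the same range but starts at its own level, since levels of different probes are not comparable. Lines are mostly flat and far apart, as in Cox4i1 and Cox6a1, so in those genes the replicate numbers differed more than the treatments; Cox4i2 is the panel in which lines cross widely.

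The replicate 1 pair was read against genes of like brightness, since bright genes that are no member were lower there too. Among genes that are no member, the median difference of this pair was -0.13 at mean levels of 4 to 6, -0.23 at 6 to 8 and -0.23 above 8. Members in the same bands had medians of -0.41 (16 genes), -0.41 (25 genes) and -0.48 (13 genes). Over all levels above 4, 54 members had a median of -0.42 and 2770 other genes -0.17. For the same genes the medians were -0.22 and -0.03 under quantile normalization, which gives each array the same distribution, and -0.35 and -0.09 under normexp. The members' median thus lay below that of the other bright genes under each of these 3 scalings, in 1 pair of arrays that has no replicate of its own. Members near 0 in this pair included Cox4i1 (0.04), Cox6b1 (0.00), Ndufa3 (-0.04) and Ndufs1 (-0.05), and the catalytic subunits Sdha (0.22) and Sdhb (0.06) were above it.

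**Figure D3:**
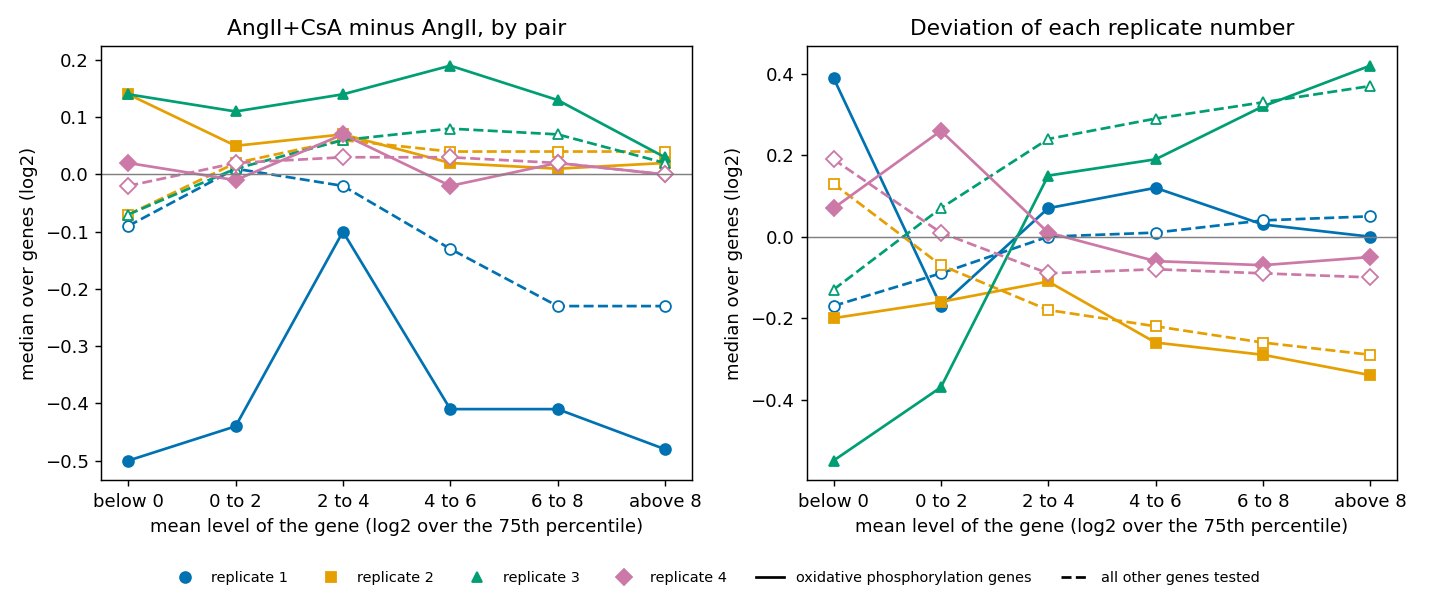
Median over genes of the pair differences (left) and of each replicate number's deviation from the mean of the 4 numbers (right), both in log2, in bands of the mean level; solid lines are the 76 oxidative phosphorylation genes and broken lines all other genes tested. In the left panel the solid line of replicate 1 lies below its broken line in every band; in the right panel replicate 3 lies below replicate 2 in the lowest band and above it at levels over 2, in the members and in the other genes alike.

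The next comparison was between replicate numbers. A limma F test on them, fitted beside the treatment, called 49 of the 76 members (64.5%) at an adjusted p of 0.05, against 68.1% of all genes tested, so the members' share was near that of all genes. By complex the counts were 17 of 32 in complex I, 4 of 4 in complex II, 5 of 7 in complex III, 12 of 15 in complex IV and 9 of 15 in complex V. The range over the 4 means of same-numbered arrays had a median of 0.77 for the members and 0.90 for all genes. Among the members the range ran from 0.18 for Ndufc2, an accessory subunit of complex I, to 3.70 for Ndufb10. Under quantile normalization the median range was 0.45 for the members and 0.81 for all genes. Under normexp the order was reversed, with 0.59 for the members and 0.48 for all genes. All genes were dimmer, with a median level of 0.53 against 5.93, and the ranges were not compared at like brightness.

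Most members followed a common course over the replicate numbers. Their median deviation from the mean of the 4 numbers was 0.07 in replicate 1, -0.29 in replicate 2, 0.28 in replicate 3 and -0.03 in replicate 4, against -0.09, -0.07, 0.07 and 0.05 over all genes. Replicate 2 was above the mean in 9 of the 76 members and replicate 3 in 64. In complex V all 15 subunits of the name rule were below the mean in replicate 2 and above it in replicate 3. With the subunits of other names, 1 of 17 was above the mean in replicate 2 and 16 were in replicate 3. Other genes with mean levels above 4 had medians of -0.24 in replicate 2 and 0.31 in replicate 3, close to the members' -0.30 and 0.31 in that range. Under quantile normalization the members' medians were -0.03 and -0.01, so the common course was gone, and the F test called 23 of 76 members (30.3%), against 55% of all genes. Under normexp they were -0.20 and 0.14, and 42 of 76 were called (55.3%), against 55% of all genes.

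Marker lists of cell types also differed between replicate numbers. The summed level of the 12 smooth muscle genes (log2 of the sum of their linear levels) was 10.42, 10.77, 11.73 and 11.38 with AngII and 10.39, 10.85, 11.6 and 11.26 with AngII+CsA in replicates 1 to 4. The summed level of the 6 fibroblast genes was 10.34, 9.71, 8.75 and 8.32 against 10.3, 9.52, 8.88 and 8.53. A sum of linear levels weighs the brightest genes most, such as Dcn among the fibroblast genes. Replicate 1 had the lowest sum of smooth muscle genes and the highest sum of fibroblast genes in both groups. Its median deviations over the genes of the 2 lists were -0.76 and 1.02. It was above the mean of the 4 numbers in 2 of the 12 smooth muscle genes and in 4 of the 6 fibroblast genes. The part of these genes in the differences between replicate numbers was not tested. Within the replicate 1 pair, the median difference of the members was -0.41, that of the smooth muscle genes 0.04 and that of the fibroblast genes -0.09. That of 12 skeletal and cardiac muscle genes, with a median level of -0.81, was -0.54, below the members' median. The endothelial, macrophage, T cell and adipocyte lists had -0.10, -0.11, -0.12 and -0.21.

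A minority of members departed from the common course, also under quantile normalization. A range over 1.5 log2 units, a limit set after the values were seen, was found in 9 members (11.8%), against 17.8% of all genes. All genes were dimmer, with a median level of 0.53 against 5.93, and these shares were not compared at like brightness. The 9 members were Ndufb10, Ndufa8 and Ndufb6 of complex I, Sdhd of complex II, Cox6c, Cox7c, Cox7b and Cox6a1 of complex IV, and Cox7a2l. In 8 of the 9 replicate 3 was the lowest number, opposite to the common course, and in Cox7b replicate 4 was. Several of the 9 were dim, with mean levels below 0 in Ndufb10, Ndufa8 and Sdhd. Genes that are no member, at levels below 0, had medians of 0.13 in replicate 2 and -0.13 in replicate 3. At levels of 0 to 2 they had -0.07 and 0.07. A replicate 3 below replicate 2 was thus not particular to members. Under quantile normalization the ranges of the 9 members ran from 1.70 for Cox7b to 3.50 for Ndufb10. Under normexp the range of Ndufb10 was 1.70, and 6 members in all had a range over 1.5.

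Cox6c, a small transmembrane subunit of complex IV, read 1.49, 0.49, -1.56 and 0.66 with AngII and 0.80, 0.58, -1.45 and 0.72 with AngII+CsA. Both replicate 3 arrays were the lowest, and the range of 2.65 (6.26-fold) compares with a treatment difference of -0.11 (-0.50 to 0.29). Its adjusted p for the replicate numbers was 0.00217 in limma. Under normexp the range of Cox6c was 1.35, so its size depends on how the background of a dim probe is treated. Cox7c, another small subunit of complex IV, read 0.45, 1.51, -1.07 and 1.27 against -0.33, 1.5, -0.65 and 1.43, again lowest in replicate 3.

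Sdhd, the small membrane anchor of complex II, read -0.62, -2.74, -3.92 and -2.41 with AngII and -1.48, -2.52, -3.32 and -2.19 with AngII+CsA, and was well above background on 3 of the 4 arrays of each group. Its range of 2.57 shrank to 0.56 under normexp. Ndufa8, an accessory subunit, read -0.91, -1.11, -2.50 and -0.62 against -1.22, -0.84, -2.97 and -0.23, and was well above background on 4 and 3 arrays. Its range of 2.31 also came to 0.56 under normexp. Ndufb6, in contrast, kept a range of 1.80 under normexp beside 2.24 in the processed signal.

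**Figure D4:**
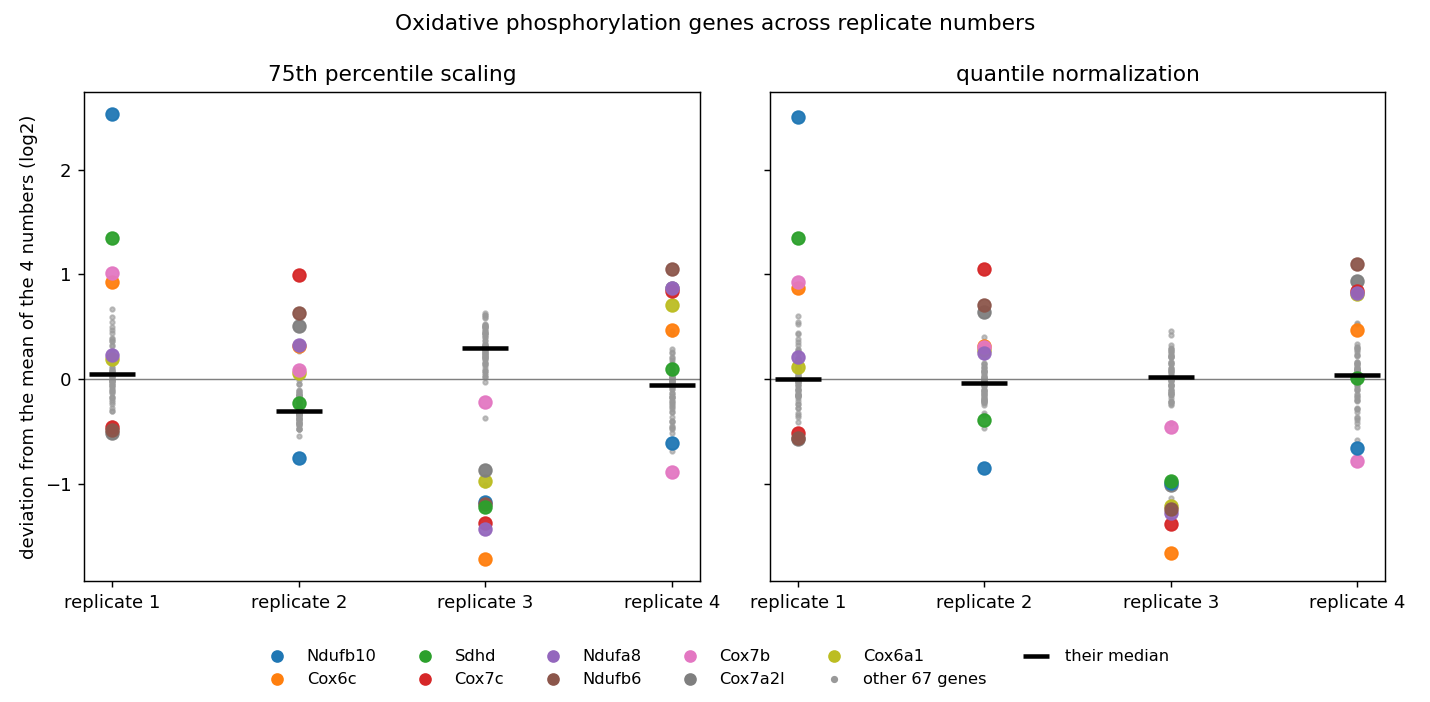
Deviation of each replicate number from the mean of the 4 numbers (log2), averaged over both treatments, for the 76 tested genes under the 75th percentile scaling (left) and quantile normalization (right); coloured points are the 9 genes with a range over 1.5, grey points the other 67 and black bars their median. On the left the grey points are low in replicate 2 and high in replicate 3; on the right they centre on 0, while 8 of the coloured genes stay at -0.97 or lower in replicate 3.

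The letters of the probes were set beside the deviations in replicate 3. All probes are 60 bases long. The share of G and C among the probes used for the tested members ran from 28.3% to 60%, with a median of 45% for the members and for all genes. The 9 wide-ranging members had a median of 35% and the other 67 a median of 45%. Across the 76 members, which share the same 8 arrays, the deviation in replicate 3 and the G and C content of the probe had a rank correlation of 0.534 (0.552 under quantile normalization), and across 14644 genes one of 0.261. Single members departed from it: Ndufb10, with the widest range, has 45%. Cox6a1 with 51.7% deviated by -0.97, and Atp5b with 31.7% by 0.31. Brightness was not held fixed, and a part of G and C content in the deviations was not tested. The probes of Ndufb6 and Cox4i1 are shown because they differ in both measures: Ndufb6 (35% G and C; chr4:40411288-40416145 on build mm7, minus strand, a span longer than the probe) deviated by -1.19 in replicate 3, and Cox4i1 (55%; chr8:119308998-119309057, plus strand) by 0.52.
Ndufb6: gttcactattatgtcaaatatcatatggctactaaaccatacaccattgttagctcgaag
Cox4i1: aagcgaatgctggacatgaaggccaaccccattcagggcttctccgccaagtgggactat

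Where a gene had several probes, their differences between treatments mostly agreed. Of the tested members 13 had more than 1 retained probe, which makes 19 pairs of probes, and 14 of these pairs differed by at most 0.1 on the log2 scale in their treatment difference. Probes that overlapped in sequence (6 pairs) differed by at most 0.04, and the other 13 pairs by at most 0.38. Ndufa12 has such a pair on chr10, at 93758922 to 93758981 and 93758942 to 93759001 (build mm7, plus strand). They share 40 bases, set in capitals.
Ndufa12 upstream probe: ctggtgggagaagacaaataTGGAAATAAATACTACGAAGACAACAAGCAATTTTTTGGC
Ndufa12 downstream probe: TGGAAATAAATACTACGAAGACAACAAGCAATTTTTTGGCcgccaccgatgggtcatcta

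The treatment differences of these Ndufa12 probes were 0.03 and 0.07, yet single pairs of arrays differed by up to 0.44 between them. The widest gap was in Dmac2l, at 0.10 and 0.48. In 3 genes the probes pointed in opposite directions: Sdha, Uqcrc1 and Atp5b. Among these 3 the widest gap was in Atp5b, whose 3 probes gave -0.19, -0.04 and 0.03, and in the replicate 1 pair -0.60, -0.22 and 0.02. The lower value of Atp5b in replicate 1 therefore depends on the probe. Uqcrh had a second probe that read 2.15, -2.70, -3.79 and -2.55 with AngII and 1.85, -3.00, -4.08 and -2.85 with AngII+CsA, a range of 5.94 over the replicate numbers against 1.36 for the brighter one. Like Ndufb10, this probe was high in both replicate 1 arrays alone.

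Lists of genes around the respiratory chain also had median differences near 0. In the blocked limma fit 0 of the genes in each of the following lists passed an adjusted p of 0.05 (1, 1, 0 and 1 had an unadjusted p under 0.05, against 5.07% of all genes). In the order given below, 93.5%, 90.9%, 81.8% and 75.9% of their tested genes differed by less than 0.2, against 76.3% of all genes. Of 31 tested assembly factors 14 were higher and 17 lower, with a median of -0.02. Oxa1l, which inserts proteins into the inner membrane, differed by 0.18 and Cox11, which delivers copper to complex IV, by -0.37. Among 22 electron carriers and carriers of the inner membrane 6 were higher and 16 lower (median -0.04). Coq5, an enzyme of ubiquinone synthesis, differed by 0.56 and Coq4, another protein of that pathway, by -0.22. Cycs, cytochrome c, read 7.10, 6.25, 6.12 and 5.46 with AngII and 6.72, 6.08, 6.41 and 5.48 with AngII+CsA, a difference of -0.06 beside a range of 1.44 between replicate numbers.

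Of 22 genes of the citric acid cycle and its entry 10 were higher and 12 lower (median -0.02). Dld, a dehydrogenase shared by the pyruvate and oxoglutarate complexes, differed by 0.33 and Pdk3, a kinase that inhibits pyruvate dehydrogenase, by -0.21. Of 29 regulators of mitochondrial biogenesis 14 were higher and 15 lower (median -0.01), with Myc at 0.28 and Mef2c at -0.32. Ppargc1a, the coactivator known for raising mitochondrial genes, read -1.06, -1.14, -1.15 and -0.33 against -1.26, -0.95, -1.42 and -0.69, a difference of -0.16. Tfam, which packages and transcribes mitochondrial DNA, read 8.13, 9.55, 10.71 and 10.14 against 9.28, 9.54, 9.74 and 10.24, a difference of 0.06. Its replicate 1 pair was higher and its replicate 3 pair lower with cyclosporin A, so the mean hides wide differences of opposite sign. In these 4 lists the replicate 1 pair had medians of -0.27, -0.31, -0.19 and -0.12, in the order given, against -0.41 for the oxidative phosphorylation genes and -0.07 for all genes.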

How the data were processed

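Spots came from scanner files made with Agilent Feature Extraction 9.5.3.1 (protocol GE1-v5_95_Feb07, build mm7, per the file headers). The intensity used was the processed signal as deposited. The log2 values of the authors' deposited table are nearly quantile-normalized (sorted arrays differ by at most 0.00185) and served as an alternative. Control and outlier spots were dropped, spots of a probe averaged on the log2 scale, each array's 75th percentile subtracted, and the brightest retained probe kept per gene. Genes were named by RefSeq accession (GRCm38.p6) for 22951 of 41174 probes, and otherwise by another probe of the name, by current symbol or as in the files. limma 3.58.1 (R 4.3.3; lmFit, eBayes, Benjamini-Hochberg over all genes tested) fitted the groups alone, and with the replicate number as a block. The tests were also run on simulated data. The differences put in were wider than any member's, so recovery of differences as small as the members' was not tried. Same-numbered arrays deviated together (correlations of 0.70 to 0.86 over all genes, against -0.76 to 0.26 for other arrays), so the numbers pair the arrays. The 4 arrays per group limit the precision. The values of 1 member are not reported here, though counts and medians include it. Members, gene lists and tests were chosen with earlier results of these data known. Genes named were those past the threshold, the smallest blocked p per direction in each complex or list, the widest replicate range per complex, all isoform genes, the widest disagreement among genes whose probes pointed opposite ways, and Ppargc1a, Cycs and Tfam.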

Additional observations from a re-analysis of the deposited data

Results flagged for a closer look

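In the medians of the 5 complexes and the named members, 62 groups of 4 arrays were checked for 1 array far from the other 3 (Dixon's ratio above its 95% critical value for 4 samples), and 4 groups had one. For independent groups not picked by their values, chance gives about 5%, or 1 in 20. That rate does not strictly apply here. Ndufb10 and Cox6c were among the genes with the widest replicate range of a complex, a rule for naming. The groups of a gene also share replicate numbers. Cox6b2 was at -0.03 in AngII+CsA replicate 2, against 0.57 to 0.64 in the others. Cox6c was at -1.45 in AngII+CsA replicate 3, against 0.58 to 0.80. Cox7a1 was at 1.85 in AngII+CsA replicate 3, against 0.97 to 1.03. Ndufb10 was at 1.37 in AngII replicate 1, against -2.46 to -1.95. In all 4 genes the array of the same number in the other group was also the lowest or the highest of its group, on the same side.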

How the results depend on the processing

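No setting called a member: the count was 0 in the groups fit and under every alternative, while over all genes it was 0 in the groups fit, 2 with the replicate block and 6 with the replicate as a random block. The median difference of the members was -0.05, between -0.03 and -0.06 under the other normalizations and filters except normexp (0.05), and between -0.17 and 0.04 when arrays or pairs were left out. The number of lower members was 56. It was 20 under normexp and ranged from 11 to 65 when arrays or pairs were left out: 11 without the replicate 1 pair, 36 without AngII replicate 1 and 33 without AngII+CsA replicate 2. The members' medians in replicates 2 and 3 were -0.03 and -0.01 under quantile normalization and in the authors' table. Members that differed between replicate numbers numbered 23 under quantile normalization and 23 in the authors' table, and 21 to 57 with 1 replicate pair left out (21 without replicate 3, 31 without replicate 2, 30 without replicate 4). Over all genes that count was 9990, 15039 with no filter and 6395 to 9148 with a pair left out. Of 571 recomputed differences of the 26 tested named genes, 77 changed sign and 0 passed the threshold. Counting lower members and the medians by replicate number under the alternatives was added after the data were seen. Dim probes, such as those of Sdhd and Ndufa8, depend on the background correction.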
